A study of Mus musculus with 8 samples.

Results

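The enzymes described here build the sugar chains of mucins, and the 10 genes were Fut2, Gcnt3, C1galt1, C1galt1c1, B4galnt2, B3gnt7, Galnt12, Galnt4, St3gal4 and Chst4. They were taken by exact symbol from a table of 18262 genes, each symbol matched 1 row, and all 10 passed the filter on low values that 14217 genes passed. RNA sequencing had been done on colon of wild-type mice in 2 groups of 4 libraries. Mice of the DSS + GAA group were given ganoderic acid A (GAA, a lanostane triterpene from Ganoderma mushrooms) at 20 mg/kg on top of colitis, which was induced with the epithelium-damaging polysaccharide dextran sulfate sodium (DSS). Mice of the DSS group had the colitis without GAA. Both groups therefore carry DSS, a group without colitis was not analysed here, and neither age, sex nor the timing of GAA is given in the labels. The treatment labels of the DSS + GAA libraries give doses from 20 to 23 mg/kg, while titles and design text give 20 mg/kg for the group, so no dose was read from them. The labels do not say whether each library is a separate animal, so p-values measure the spread between these libraries, which may be technical. Libraries correlated over the tested genes at r = 0.923 to 0.989 within DSS + GAA, 0.966 to 0.986 within DSS and 0.896 to 0.962 between the groups, and sequencing depth is unknown because the deposited unit keeps none.

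Mucins are secreted or membrane-bound proteins whose long serine- and threonine-rich stretches are covered with O-linked sugar chains, and in the colon these chains hold water, feed bacteria and form part of the mucus barrier. Synthesis runs in order along the Golgi. GALNT enzymes attach N-acetylgalactosamine to the protein, core enzymes add the next sugars, extension enzymes lengthen the chain, and the ends are closed with fucose, sialic acid, N-acetylgalactosamine or sulfate. Goblet cells and colonocytes both use this machinery, and in whole tissue fewer cells of a type and less RNA per cell cannot be told apart.

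GAA-treated colon had about 4 times the St3gal4 transcript of DSS colon, and B3gnt7 was higher too. St3gal4 encodes a sialyltransferase that closes chains with sialic acid, and B3gnt7 encodes an N-acetylglucosaminyltransferase that extends them. The log2 fold change was 2.06 ± 0.20 for St3gal4 (standard error; limma adjusted p = 0.00420) and 0.74 ± 0.20 for B3gnt7 (limma adjusted p = 0.0205). The other 8 enzymes, which cover initiation, the core, fucosylation, the Sda end and sulfation, did not pass, and their log2 fold changes lay between -0.11 (C1galt1) and 0.29 (B4galnt2). So 2 of 10 were higher and 0 lower, where 5.96% of all tested genes were higher and 28.2% lower. Without adjustment 2 of the 10 had a limma p under 0.05 in the higher direction and 0 in the lower, and the authors' deposited table calls the same 2 higher and 0 lower. The median over the 10 was 0.20, and over all tested genes it was -0.25. Fold changes are on the log2(TPM + 1) scale, where TPM is a length-normalised transcript abundance scaled to one total in every library, and an adjusted p under 0.05 over all tested genes counts as passing.

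**Figure D1:**
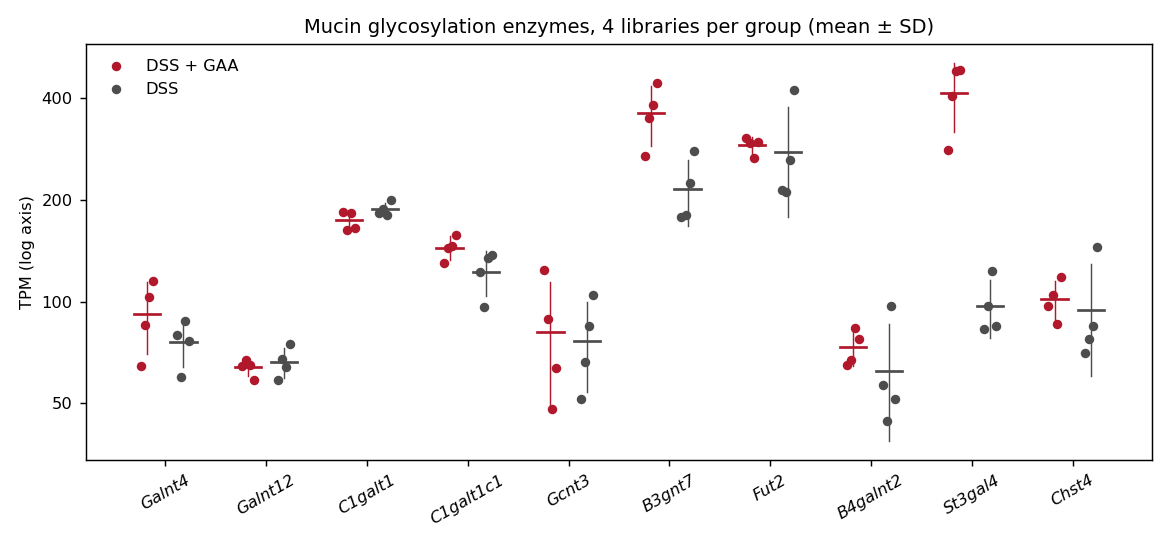
Level of each of the 10 enzymes in every library, in TPM on a log axis, with DSS + GAA libraries in red to the left of DSS libraries in grey. Horizontal bars are means and vertical bars SD over 4 libraries. St3gal4 separates the groups (279 to 481 TPM in DSS + GAA, 82.7 to 123 TPM in DSS), and the points of the 9 other enzymes overlap.

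The sequences before an annotated start of St3gal4 and B3gnt7 are shown because these are the 2 genes that rose. Each line reads 5′ to 3′ on the gene's strand and ends at or near a transcript start of RefSeq on GRCm38.p6. It covers chr9:35116874-35117114 (minus strand) for St3gal4 and chr1:86302971-86303220 (plus strand) for B3gnt7.
St3gal4: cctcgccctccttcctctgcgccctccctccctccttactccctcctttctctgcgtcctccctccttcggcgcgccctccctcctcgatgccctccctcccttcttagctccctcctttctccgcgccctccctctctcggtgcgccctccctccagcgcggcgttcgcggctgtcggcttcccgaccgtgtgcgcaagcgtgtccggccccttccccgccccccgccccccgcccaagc
B3gnt7: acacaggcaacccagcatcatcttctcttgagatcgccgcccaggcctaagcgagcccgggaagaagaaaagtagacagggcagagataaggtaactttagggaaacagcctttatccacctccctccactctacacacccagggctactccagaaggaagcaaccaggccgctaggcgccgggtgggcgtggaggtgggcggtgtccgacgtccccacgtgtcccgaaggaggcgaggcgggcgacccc
The St3gal4 stretch is 72.2% G and C over 241 bases and the B3gnt7 stretch 61.6% over 250 bases. The half-site AGGTCA, which ROR receptors bind with a flank rich in A and T, and TTCNNNGAA, the palindrome that STAT factors bind, were searched on both strands of the 250 bases before the RefSeq start, of which the St3gal4 line leaves out those next to the start that GENCODE places in an exon. Neither window held either word, so no letters are in capitals. Among 32851 promoter windows of RefSeq genes, 14.0% held AGGTCA and 7.02% held TTCNNNGAA. Promoter entries matched 5 of the 10 enzymes, and B4galnt2, C1galt1 and Chst4 held neither word. Both stretches lie within the annotated span of their gene in GENCODE vM21: a noncoding B3gnt7 transcript starts before its stretch and covers it, and some of the 9 St3gal4 transcripts start farther upstream. Gene-level TPM does not tell which start was used.

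Initiation is represented by Galnt4 and Galnt12, which attach the first N-acetylgalactosamine to mucin serines and threonines. Galnt4 (chromosome 10, 99108159 to 99113247, plus strand) had 64.6, 85.3, 103 and 115 TPM in DSS + GAA colon, against 79.6, 59.97, 87.7 and 76.4 TPM in DSS colon. The groups overlapped, with DSS + GAA replicates 4 and 5 above every DSS library and replicate 1 below 3 of the 4 DSS libraries (log2 fold change 0.25, 95% interval -0.18 to 0.69; limma adjusted p = 0.330). The gene lies inside Poc1b on the same strand, and 8.25% of its 5089 exonic bases are also exonic in Poc1b. Reads from those bases cannot be assigned to 1 of the 2 genes by position, and Poc1b had 12.6 to 22.2 TPM in DSS + GAA and 14.8 to 20.8 TPM in DSS colon. Galnt12 (chromosome 4, 47091909 to 47123070, plus strand) varied little between libraries. It had 64.7, 67.4, 64.8 and 58.6 TPM in DSS + GAA colon and 58.6, 67.7, 64.0 and 74.8 TPM in DSS colon (log2 fold change -0.05, 95% interval -0.30 to 0.20; limma adjusted p = 0.753). Both intervals leave out a doubling in either direction.

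Both genes are part of a family that changed little in sum. The 15 listed Galnt genes added up to 512 to 574 TPM in DSS + GAA and 495 to 572 TPM in DSS colon. Galnt4 made up 12.6 to 20.0% of that sum in DSS + GAA and 12.1 to 15.3% in DSS colon, and Galnt12 made up 10.2 to 12.8% and 10.7 to 14.4% of it in DSS + GAA and DSS colon. Within the library, Galnt12 over Galnt4 gave a log2 ratio of -0.49 ± 0.41 in DSS + GAA and -0.19 ± 0.31 in DSS colon (SD, n = 4 each; two-sided exact permutation p = 0.286).

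The core step rests on C1galt1, which adds galactose to make core 1, and on C1galt1c1, an endoplasmic reticulum chaperone that C1galt1 needs to fold. C1galt1 (chromosome 6, 7844842 to 7875687, plus strand) had 184, 162, 183 and 165 TPM in DSS + GAA and 183, 188, 180 and 199 TPM in DSS colon. The group means differed by less than the range within DSS + GAA (log2 fold change -0.11, 95% interval -0.35 to 0.12; limma adjusted p = 0.420). C1galt1c1 (chromosome X, 38630785 to 38635087, minus strand) had 130, 144, 146 and 157 TPM in DSS + GAA and 122, 96.4, 134 and 137 TPM in DSS colon. Of its DSS + GAA libraries, 3 lay above all DSS libraries and replicate 1 below 2 of them (0.24, 95% interval -0.07 to 0.55; limma adjusted p = 0.194). The enzyme therefore had more transcript than its chaperone in every library, by a log2 ratio of 0.27 ± 0.19 in DSS + GAA and 0.62 ± 0.23 in DSS colon (SD, n = 4 each). The difference of -0.36 did not pass (two-sided exact permutation p = 0.0571, 0.114 after Benjamini-Hochberg adjustment over the 6 ratios examined).

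Gcnt3, which adds the N-acetylglucosamine branch that turns core 1 into core 2, was the most variable of the 10 in DSS + GAA colon. It lies on chromosome 9, 70031496 to 70038088, minus strand. Its level was 124, 89.1, 48.2 and 63.8 TPM in DSS + GAA colon and 51.6, 66.3, 84.8 and 104 TPM in DSS colon, a coefficient of variation of 40.7% and 29.7%. DSS + GAA replicate 1 had the highest and replicate 4 the lowest of all 8 values, and the groups overlapped throughout (log2 fold change 0.04, 95% interval -0.65 to 0.73; limma adjusted p = 0.926). The sign of this value turned on leaving out replicate 1 or replicate 2 of either group (-0.19 to 0.26 over the 8 omissions). Core 3 synthase B3gnt6, which starts the chain type that competes with core 1, had at most 1.05 TPM in any library (0.506 ± 0.233 TPM in DSS + GAA and 0.765 ± 0.299 TPM in DSS colon) and was not tested. At such levels the ratio of Gcnt3 to B3gnt6 is set largely by the pseudocount, and nothing was read from it. Gcnt3 over C1galt1 gave -1.17 ± 0.59 in DSS + GAA and -1.33 ± 0.40 in DSS colon (p = 0.657 by the same exact permutation test).

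B3gnt7, the chain extender (chromosome 1, 86302832 to 86307305, plus strand), had 268, 348, 380 and 442 TPM in DSS + GAA colon, against 177, 180, 224 and 278 TPM in DSS colon. Of the DSS + GAA libraries, 3 lay above all DSS libraries, and DSS + GAA replicate 1 lay just below DSS replicate 5. The 95% interval of its log2 fold change ran from 0.30 to 1.19, and a two-sided exact permutation test gave p = 0.0571, where 4 against 4 libraries allow no p below 0.0286. The call did not hold without DSS + GAA replicate 2 (limma adjusted p = 0.0517), DSS + GAA replicate 4 (0.0507), DSS replicate 1 (0.0711) or DSS replicate 2 (0.0556). The fold change itself stayed between 0.64 and 0.88 over the 8 omissions. The authors' deposited table calls B3gnt7 higher at a false discovery rate of 0.00392, in a table that calls 10.3% of its genes higher. An annotated antisense gene, Gm28626, overlaps B3gnt7, and without stated strand its reads cannot be told apart from those of B3gnt7.

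Among the listed B3gnt genes, B3gnt3 had a level like that of B3gnt7 (366 ± 27.3 TPM in DSS + GAA and 298 ± 18.6 TPM in DSS colon) and did not pass (log2 fold change 0.29; limma adjusted p = 0.0698). The groups did not overlap for B3gnt3 (342 to 405 TPM in DSS + GAA and 285 to 325 TPM in DSS colon). The same held, with DSS + GAA higher, for 5.31% of all tested genes. B3gnt7 made up 32.6 to 42.9% of the B3gnt sum in DSS + GAA and 28.6 to 36.6% in DSS colon, so its share overlapped between groups. The sum of the 7 B3gnt genes did not overlap, at 821 to 1030 TPM in DSS + GAA and 618 to 761 TPM in DSS colon. B3gnt3 is named here after its value was seen.

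Fut2, which adds the terminal fucose of the H antigen and whose human form sets secretor status, had the highest mean of the 10 in DSS colon. It lies on chromosome 7, 45648591 to 45666394, minus strand. Its level was 304, 294, 265 and 296 TPM in DSS + GAA colon and 214, 210, 261 and 420 TPM in DSS colon. DSS + GAA libraries clustered within a coefficient of variation of 5.82%, while DSS libraries spread over 35.7%, with replicate 5 highest of all 8. The groups overlapped (log2 fold change 0.13, 95% interval -0.35 to 0.61; limma adjusted p = 0.666). Without DSS replicate 5 the log2 fold change was 0.35 and still did not pass (limma adjusted p = 0.0739). This was the highest of the 8 omissions of a library, which ran from 0.016 to 0.35 (limma adjusted p 0.0739 to 0.962). Fut2 supplied 71.3 to 88.8% of the summed TPM of Fut1, Fut2, Fut4, Fut7 and Fut9 in DSS + GAA and 71.6 to 84.7% in DSS colon.

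Chst4, which places sulfate on N-acetylglucosamine and is known from colonic mucin and from high endothelial venules, followed the same order among DSS libraries as Gcnt3, with replicate 1 lowest and replicate 5 highest. Its level (chromosome 8, 110029153 to 110039740, minus strand) was 97.1, 105, 85.7 and 119 TPM in DSS + GAA colon and 70.6, 77.5, 84.9 and 145 TPM in DSS colon. The DSS range enclosed all 4 DSS + GAA values (log2 fold change 0.15, 95% interval -0.34 to 0.65; limma adjusted p = 0.618). Without DSS replicate 5 it was 0.38 (limma adjusted p = 0.0768), the highest of the 8 omissions of a library, which ran from 0.033 to 0.38 (limma adjusted p 0.0768 to 0.930). Of 7 listed venule genes, Glycam1 was at 0.0573 ± 0.115 TPM in DSS + GAA and 0.125 ± 0.250 TPM in DSS colon. It was listed at 0 in 3 of 4 libraries of each group. Others were detected, such as Madcam1 (3.11 ± 2.14 TPM in DSS + GAA and 6.02 ± 1.57 TPM in DSS colon) and Ackr1 (7.78 ± 5.00 TPM and 21.7 ± 4.77 TPM). These venule genes are named after their values were seen. Of the 5 tested, 3 were lower and 1 higher, beside 28.2% lower and 5.96% higher over all tested genes. The part of venules in the Chst4 level was not tested. Chst4 made up 93.0 to 97.6% of the summed Chst1, Chst2, Chst4, Chst5 and Chst7 TPM in DSS + GAA and 87.2 to 96.6% in DSS colon.

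B4galnt2, which makes the Sda end by adding N-acetylgalactosamine beside sialic acid, had the widest relative spread of the 10 in DSS colon (coefficient of variation 37.9%, against 11.9% in DSS + GAA colon). It lies on chromosome 11, 95865943 to 95914891, minus strand. It had 65.0, 67.4, 83.5 and 77.7 TPM in DSS + GAA colon and 56.7, 44.3, 97.1 and 51.5 TPM in DSS colon. DSS replicate 4 was the highest of all 8 and the other 3 DSS libraries were the lowest, so the groups overlapped through that library alone (log2 fold change 0.29, 95% interval -0.22 to 0.79; limma adjusted p = 0.341). Without DSS replicate 4 the log2 fold change was 0.52 and passed (limma adjusted p = 0.0361), and it passed in no other omission of a library. Over the 8 omissions it ran from 0.15 to 0.52 (limma adjusted p 0.0361 to 0.640).

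St3gal4 (chromosome 9, 35046576 to 35119268, minus strand) had 279, 404, 481 and 481 TPM in DSS + GAA colon, against 82.7, 97.0, 123 and 84.7 TPM in DSS colon. All DSS + GAA libraries lay above all DSS libraries, by more than a factor of 2 between the nearest pair. Groups that do not overlap with DSS + GAA higher were found for 5.31% of all tested genes, and with DSS + GAA lower for 27.6%. Its 95% interval ran from 1.60 to 2.52, p by two-sided exact permutation was 0.0286 (no smaller value can occur), and the gene ranked 44 of 14217 by log2 fold change. It passed in each of the 8 omissions of a library (log2 fold change 1.97 to 2.23, limma adjusted p 0.000619 to 0.0221). The authors' deposited table gives a log2 fold change of 2.08 at a false discovery rate of 1.42e-12. By mean TPM it ranked 1 of the 10 enzymes in DSS + GAA colon and 5 in DSS colon. An annotated noncoding gene on the opposite strand, 4930581F22Rik, overlaps it, and reads from the overlap cannot be told apart without strand.

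No other St3gal gene was called higher by limma, where 5.96% of all tested genes were higher and 28.2% lower. With so few genes, that count does not set St3gal4 apart. St3gal4 made up 64.5 to 80.3% of the summed St3gal TPM in DSS + GAA and 34.7 to 42.3% in DSS colon, with no overlap. The family sum was 433 to 624 TPM in DSS + GAA and 230 to 299 TPM in DSS colon. St3gal6, a relative that also caps galactose, had 92.9 ± 18.3 TPM in DSS + GAA and 73.8 ± 8.88 TPM in DSS colon (SD, n = 4 each) and did not pass (limma adjusted p = 0.137). St3gal1, which sialylates core 1 itself, fell by 1.62 on the log2 scale to 7.15 ± 5.08 TPM in DSS + GAA colon, against 22.2 ± 10.3 TPM in DSS colon (limma adjusted p = 0.0276). St6galnac6 had the highest mean of the listed sialyltransferases in both groups. Its level was 454 ± 66.6 TPM in DSS + GAA and 332 ± 55.9 TPM in DSS colon, and it did not pass (limma adjusted p = 0.0595). In DSS + GAA colon it made up 42.2 to 43.6% of the summed sialyltransferase TPM, against 33.0 to 41.2% for St3gal4. St6galnac1, which makes sialyl-Tn, was below the filter at 0.203 ± 0.0871 TPM in DSS + GAA and 0.124 ± 0.115 TPM in DSS colon. St3gal6, St3gal1 and St6galnac6 are named after their values were seen.

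**Figure D2:**
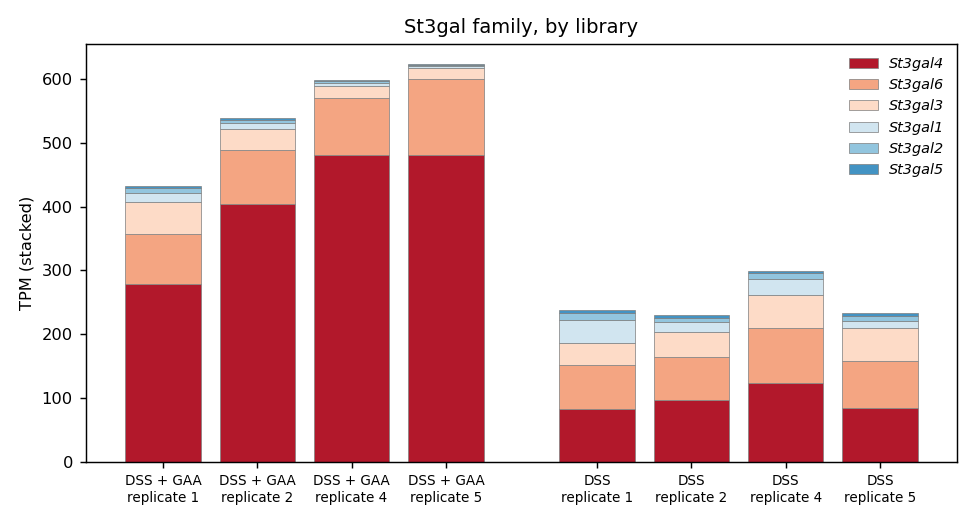
TPM of the 6 St3gal genes stacked per library, DSS + GAA libraries on the left and DSS libraries on the right. The St3gal4 segment takes 64.5 to 80.3% of each DSS + GAA bar and 34.7 to 42.3% of each DSS bar.

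Set against other chain ends within the same library, St3gal4 moved past Fut2. Fut2 over St3gal4 gave a log2 ratio of -0.47 ± 0.43 in DSS + GAA and 1.46 ± 0.57 in DSS colon (SD, n = 4 each), a difference of -1.93. B4galnt2 over St3gal4 gave -2.44 ± 0.24 in DSS + GAA and -0.67 ± 0.33 in DSS colon, a difference of -1.77. Both sets of libraries were fully separated, and Fut2 had less transcript than St3gal4 in 3 of 4 DSS + GAA libraries and more in 4 of 4 DSS libraries. By two-sided exact permutation p was 0.0286 for each, as low as 8 libraries allow, and 0.0857 after adjustment over the 6 ratios. With only these ratios at the lowest possible p, the adjusted value could not pass, so it does not decide. The log2 fold changes of Fut2 (0.13) and B4galnt2 (0.29) were small, so both differences largely restate that of St3gal4. A ratio within a library does not depend on scaling between libraries beyond the pseudocount of 1. All 6 share members, and both of these share St3gal4.

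**Figure D3:**
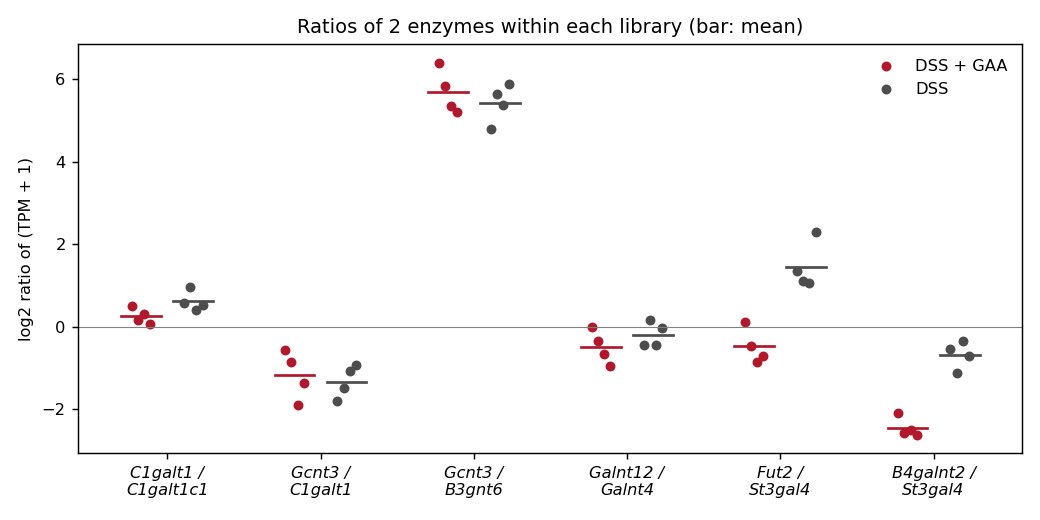
Log2 ratio of (TPM + 1) of 2 enzymes in each library for 6 pairs, DSS + GAA in red on the left and DSS in grey on the right of each pair, bars at the mean. Fut2 over St3gal4 and B4galnt2 over St3gal4 separate the groups, and the other 4 pairs overlap; the height of Gcnt3 over B3gnt6 is set largely by the pseudocount of 1.

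By level, which TPM allows to be compared between genes per transcript length, the 10 enzymes were among the more abundant genes, from percentile 83.3 (Galnt12) to 97.5 (St3gal4) of the tested genes in DSS + GAA colon and from 80.3 (B4galnt2) to 96.2 (Fut2) in DSS colon. In mean TPM the order in DSS + GAA colon was St3gal4 (411 ± 95.1), B3gnt7 (360 ± 72.5), Fut2 (290 ± 16.9), C1galt1 (173 ± 11.3), C1galt1c1 (144 ± 11.4), Chst4 (102 ± 13.8), Galnt4 (91.9 ± 21.9), Gcnt3 (81.2 ± 33.0), B4galnt2 (73.4 ± 8.72) and Galnt12 (63.9 ± 3.70). In DSS colon Fut2 (276 ± 98.5) and B3gnt7 (215 ± 47.4) came first, then C1galt1 (188 ± 8.29), C1galt1c1 (122 ± 18.5), St3gal4 (96.9 ± 18.7), Chst4 (94.5 ± 34.2), Gcnt3 (76.7 ± 22.8), Galnt4 (75.9 ± 11.7), Galnt12 (66.3 ± 6.76) and B4galnt2 (62.4 ± 23.7). Errors are SD over 4 libraries. The ranges over libraries of neighbours in these orders overlapped, except Fut2 and C1galt1, C1galt1 and C1galt1c1, and C1galt1c1 and Chst4 in DSS + GAA colon, and C1galt1 and C1galt1c1 in DSS colon.

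Scaling between libraries moved the smaller changes. Centring each library by its median gave log2 fold changes of 2.36 for St3gal4, 1.05 for B3gnt7, 0.56 for Galnt4 and 0.55 for C1galt1c1, and the last 2 passed as well (limma adjusted p = 0.0470 and 0.0165). Trimmed mean scaling called the same 4 higher (Galnt4 at 0.0489 and C1galt1c1 at 0.0182), and quantile normalization called St3gal4 and B3gnt7. Over all tested genes these scalings gave 2165 higher and 1308 lower (median centring), 1890 higher and 1645 lower (trimmed mean) and 1677 higher and 1601 lower (quantile), against 847 higher and 4006 lower on TPM as deposited. As shares, 15.2% were higher and 9.2% lower with median centring, 13.3% and 11.6% with the trimmed mean, and 11.8% and 11.3% with quantiles, so the 4 or 2 enzymes of 10 stand against larger backgrounds there. Across the tested genes, fold changes had a median of -0.25 (log2) on TPM as deposited, and this median was 0.05 with median centring, -0.0035 with the trimmed mean and 0.02 with quantiles. C1galt1 turned positive under median centring and trimmed mean scaling, and Galnt12 under all 3.

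Some epithelial and goblet cell markers were higher too, and the counts here stand beside 5.96% higher and 28.2% lower over all tested genes. Of 16 pan-epithelial markers 4 were higher, 0 lower and 12 did not pass, among them Cldn4 at -1.02 and Cdx2 at -0.67 (limma adjusted p = 0.0608 and 0.120; both named after their values were seen), and their summed level was 20237.8 to 25054.6 TPM in DSS + GAA and 15045.1 to 18214.4 TPM in DSS colon. Of 18 goblet cell markers 10 were higher, 0 lower and 8 did not pass (summed level, overlapping between groups, 13602.5 to 25832.5 TPM in DSS + GAA and 7302.5 to 18598.6 TPM in DSS colon), and of 16 colonocyte markers 6 were higher and 1 lower (44168 to 59141.8 TPM and 27909.2 to 49923.5 TPM in DSS + GAA and DSS colon). With every library centred on the mean of the pan-epithelial markers, St3gal4 was higher by 1.78 (limma adjusted p = 0.00228) and B3gnt7 by 0.47 (limma adjusted p = 0.0418), on a scale where 2.69% of genes were higher and 49.1% lower (383 and 6981 genes) and the median of all genes was -0.53. On that scale B4galnt2 was at 0.01, the 7 others were between -0.39 (C1galt1) and -0.02 (Galnt4), and none of these 8 passed by limma. Neutrophil markers were lower (10 of 12 tested, 0 higher; summed level 201 to 736 TPM in DSS + GAA and 2195.6 to 6559.1 TPM in DSS colon), as were 5 of 10 fibroblast markers, with 0 higher (500 to 1760 TPM in DSS + GAA and 1877 to 5182 TPM in DSS colon). Of 10 smooth muscle markers 1 was lower and 0 higher, a smaller share than the 28.2% of all genes (1666 to 4016 TPM in DSS + GAA and 2104 to 5537 TPM in DSS colon). Of 5 tested venule markers 3 were lower and 1 higher (Ubd, named after its value was seen). Of 8 tested B and plasma cell markers 0 passed in either direction by limma, also 0 at an unadjusted p under 0.05 (886 to 3236 TPM in DSS + GAA and 1173 to 1965 TPM in DSS colon). At an unadjusted p under 0.05, the lists with 0 lower by limma gave 1 lower of the pan-epithelial and 0 of the goblet cell markers, and those with 0 higher gave 1 of the neutrophil and 0 of the fibroblast and smooth muscle markers. The part of these shifts in the results of St3gal4 and B3gnt7 was not tested further.

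**Figure D4:**
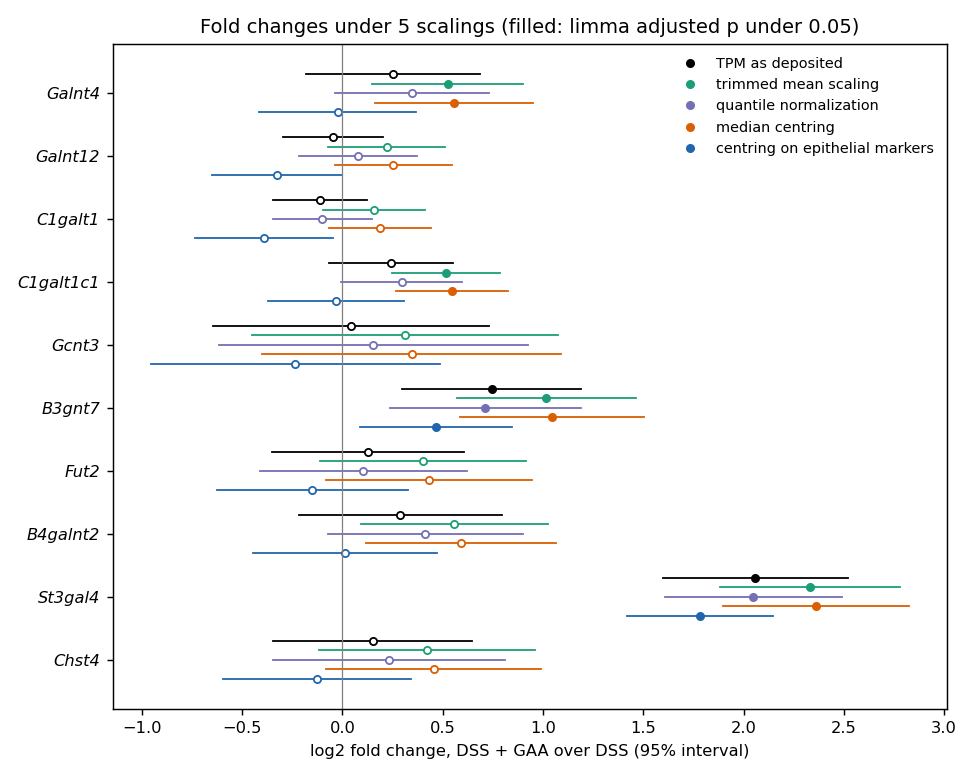
Log2 fold change, DSS + GAA over DSS, of the 10 enzymes with 95% intervals from limma, on TPM as deposited and under 4 other scalings; filled points have a limma adjusted p under 0.05. St3gal4 lies between 1.78 and 2.36 and passes under all 5, as does B3gnt7 between 0.47 and 1.05.

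A list of further glycan enzymes was compared next, not all of them confined to mucin chains. Of its 52 tested rows, 5 were higher (9.62%), 13 lower (25%) and 34 did not pass. Over all tested genes 5.96% were higher and 28.2% lower. The share of lower calls was thus near that of all genes. The median was -0.06 (all tested genes -0.25). The higher ones were Gal3st2, a galactose sulfotransferase (25.1 ± 1.16 TPM in DSS + GAA and 12.2 ± 5.30 TPM in DSS colon), and Galnt5, Galnt10, B4galt5 and St6galnac4. All of these but Gal3st2 are named after their values were seen. The lower ones with the smallest p were Gcnt4, a relative of Gcnt3 (2.32 ± 0.52 TPM in DSS + GAA and 10.1 ± 4.87 TPM in DSS colon), B3galt1 and B4galnt1, which acts on gangliosides (18.7 ± 4.95 TPM in DSS + GAA and 35.7 ± 3.91 TPM in DSS colon). B3galt1 had only 0.74 ± 0.29 TPM in DSS + GAA and 2.00 ± 0.26 TPM in DSS colon, so it met the filter through the DSS libraries. It did not pass under quantile normalization (limma adjusted p = 0.0509) or median centring (0.0662). With the filter raised to a TPM of at least 5, the list gave 5 higher and 6 lower of 38 tested rows. All genes then gave 731 higher and 2980 lower of 11266. Among the 11 other initiation enzymes tested, 2 were higher and 4 lower, and among the 11 other sialyltransferase rows 1 was higher and 2 were lower, counts too small to set these steps apart from the shares over all genes. The list counts rested on scaling, with 11 higher and 4 lower under trimmed mean scaling, 11 and 2 under quantile normalization, 13 and 2 under median centring and 2 and 20 with epithelial centring. They also rested on single libraries. Higher genes numbered 11, 2, 3 and 3 without DSS + GAA replicates 1, 2, 4 and 5, and 1, 3 and 2 without DSS replicates 1, 2 and 5. Lower genes numbered 20, 8, 4 and 5 without DSS + GAA replicates 1, 2, 4 and 5, and 3 and 5 without DSS replicates 1 and 4.

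Genes listed for the supply of sugar and sulfate donors were tested in full (31 of 31). Of these, 7 were higher (22.6%) and 2 lower (6.45%), with a median of 0.16. Over all tested genes 5.96% were higher and 28.2% lower, with a median of -0.25. Some of the list, such as Amdhd2, do not act toward the donors, so the counts do not measure supply. Gmds, which acts on the route to the GDP-fucose that Fut2 uses, rose to 472 ± 56.2 TPM in DSS + GAA colon, against 263 ± 23.5 TPM in DSS colon (log2 fold change 0.84 ± 0.13, limma adjusted p = 0.00531). Slc26a2, the sulfate carrier that feeds Chst4 and other sulfotransferases, rose to 275 ± 71.2 TPM in DSS + GAA colon, against 116 ± 36.5 TPM in DSS colon (1.26 ± 0.25, limma adjusted p = 0.00799). Of the genes of sialic acid supply, from which St3gal4 draws, limma gave 0 calls among Gne (limma adjusted p = 0.0507), Nans (0.681), Nanp (0.757), Cmas (0.947) and the transporter Slc35a1 (0.239), named after their values were seen; at an unadjusted p under 0.05 Gne alone would pass (0.0175). Renbp, which acts on N-acetylmannosamine, a precursor of sialic acid, fell by 1.12 on the log2 scale (limma adjusted p = 0.0242; named after its value was seen) and was the other lower gene of the list beside Gfpt2. Amdhd2 rose (0.84, limma adjusted p = 0.0154, 0.0558 without DSS replicate 1). Gfpt2, 1 of 2 listed enzymes that open the hexosamine route, fell by 1.54 (limma adjusted p = 0.0157; 0.0569 without DSS replicate 1 and 0.0564 under quantile normalization) to 2.77 ± 1.29 TPM in DSS + GAA colon, against 10.4 ± 4.56 TPM in DSS colon. The far more abundant Gfpt1 had 528 ± 82.8 TPM in DSS + GAA and 395 ± 63.3 TPM in DSS colon and did not pass (log2 fold change 0.42, limma adjusted p = 0.0697; named after its value was seen). The list gave 13 higher and 1 lower with the trimmed mean and with median centring alike, 11 and 0 under quantile normalization, and 3 and 5 with epithelial centring, where 13.3%, 15.2%, 11.8% and 2.69% of all genes were higher. Higher genes numbered 13, 3 and 3 without DSS + GAA replicates 1, 2 and 4, and 2 and 3 without DSS replicates 1 and 2. Without DSS + GAA replicate 5 the lower genes numbered 1, and leaving out DSS replicate 1 or 4 gave 0 or 1.

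**Figure D5:**
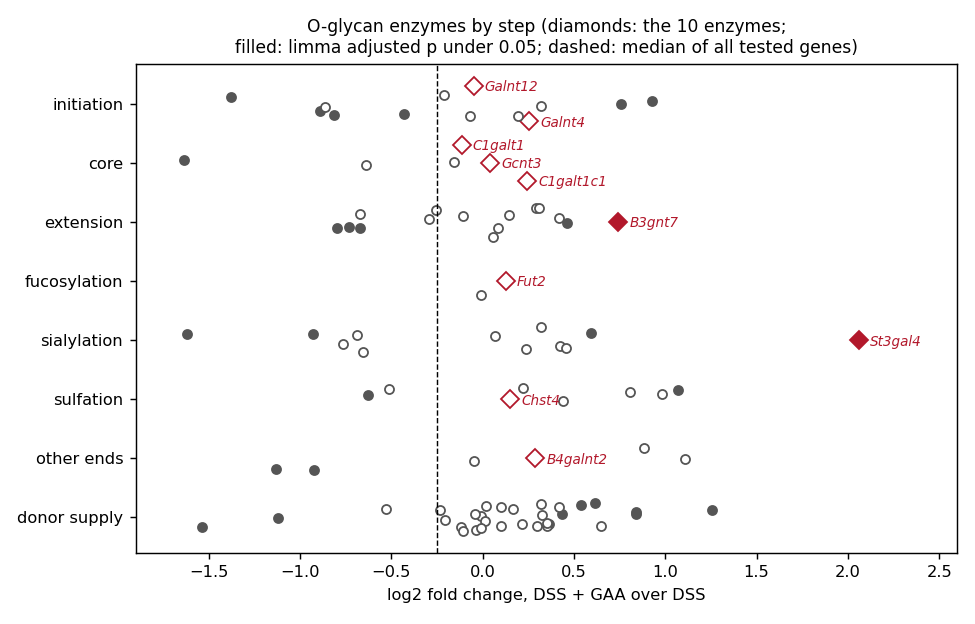
Log2 fold change of the tested glycan enzymes by step of synthesis and of the donor supply genes. The 10 enzymes are red diamonds and the other genes, not all confined to mucin chains, are grey circles. Filled symbols have a limma adjusted p under 0.05, and the dashed line is the median of all tested genes (-0.25). St3gal4 at 2.06 lies to the right of all other symbols, and initiation, extension, sialylation and sulfation each hold filled symbols on both sides of 0.

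Of the proteins that carry the chains, 3 of 7 tested mucin rows were higher and 0 lower by limma (4 and 0 at an unadjusted p under 0.05), beside 5.96% higher and 28.2% lower over all tested genes. Muc2, the gel-forming mucin of the colon, had 693 ± 177 TPM in DSS + GAA and 461 ± 162 TPM in DSS colon and did not pass (log2 fold change 0.62, limma adjusted p = 0.110). The membrane mucin Muc1 rose (40.2 ± 3.67 TPM in DSS + GAA and 19.8 ± 8.50 TPM in DSS colon; limma adjusted p = 0.0178, and 0.0627 without DSS replicate 1), as did Muc4 (limma adjusted p = 0.0205; 0.0600, 0.0697 and 0.0504 without DSS + GAA replicate 2, DSS replicate 1 and DSS replicate 2). Muc20 rose too (limma adjusted p = 0.0444) but passed in 1 of the 8 omissions only. Muc3 did not pass on the deposited scale (limma adjusted p = 0.0819) and passed under trimmed mean scaling (0.0301), median centring (0.0260) and without DSS replicate 5 (0.0241). Muc3a, a separate row named after its value was seen, went the other way and did not pass (log2 fold change -0.40, limma adjusted p = 0.286). It had 112 ± 35.9 TPM in DSS + GAA and 149 ± 54.4 TPM in DSS colon. The goblet cell genes with the smallest p were Agr2 (log2 fold change 1.15), Ern2 (1.02), Foxa3 (0.93) and Tspan13 (0.52).

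As a description, the genes closest to each enzyme in gene-centred log2 values over the 8 libraries were listed, by root mean square difference. Closest to St3gal4 were Gjb5 (0.206), Gm5485 (0.253) and Ephb6 (0.262), each higher in DSS + GAA colon with log2 fold changes of 1.95, 1.80 and 1.97. Such fold changes follow from picking genes by their likeness to St3gal4 over the same libraries. Closest to B3gnt7 were Sec16b (0.0842), Ly6g6d (0.0975) and Naip6 (0.0999). For Fut2 the 3 closest were Zfp94 (0.0957), Chst4 (0.105) and Nlrx1 (0.122). For Chst4 they were Spdef, a transcription factor of goblet cells (0.103), Fut2 (0.105) and Cracr2a (0.137). These distances carry no test, and genes with little change lie close to many others.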

How the data were processed

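RNA had been extracted from mouse colon with TRIzol, messenger RNA taken by oligo(dT), and paired-end libraries run on an MGI-T7 instrument, per the labels' protocols, which do not state strand. The authors deposited TPM per gene and library, and TPM keeps no record of depth, so depth is unknown and no interval that needs counts is given. Beside these the authors deposited, per gene, the log2 fold change with its p-value and false discovery rate; no source used here gives their test. The submitters' processing notes name Trimmomatic, HISAT2, featureCounts, edgeR and mm10 among others, without roles.

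The 14217 genes that reached a TPM of 1 in 4 or more of the 8 libraries were compared on log2(TPM + 1) with limma 3.58.1 in R 4.3.3 (variance trend, robust, group as sole term), with Benjamini-Hochberg adjustment across them. Single values and ratios were also compared by two-sided exact permutation over 70 assignments. Coordinates are GENCODE vM21 on GRCm38, promoter sequences are from RefSeq on GRCm38.p6 (5 of 10 enzymes matched). Named genes beyond the 10 enzymes were the 4 with the smallest p of the transferase, donor, mucin and goblet cell lists, plus Muc2, B3gnt6 and St6galnac1, and the 3 closest patterns per enzyme; others are marked. The members, lists and tests were chosen with earlier results of these data known. Alternatives were other pseudocounts, filters, scalings, limma settings, a replicate block and leaving out each library. TPM allows no count test.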

Additional observations from a re-analysis of the deposited data

How the results depend on the processing

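St3gal4 kept its direction and its call under all 19 alternatives, and B3gnt7 kept its direction under all 19 and lost its call in 4 of the 8 omissions of a library. Calls among the 10 enzymes numbered 4 higher under trimmed mean scaling and 4 under median centring, and 1 to 3 higher and 0 lower over the omissions. All tested genes gave 1890 higher and 1645 lower under trimmed mean scaling, 1677 and 1601 under quantile normalization, 2165 and 1308 under median centring, 383 and 6981 with epithelial centring, and 361 to 1277 higher and 1676 to 4435 lower over the omissions. The further transferases gave 6 lower at a TPM of at least 5, 11 higher and 4 lower under trimmed mean scaling, 11 and 2 under quantile normalization, 13 and 2 under median centring, 2 and 20 with epithelial centring, and 1 to 11 higher and 3 to 20 lower over the omissions. The donor genes gave 1 lower at a TPM of at least 5, 13 and 1 under trimmed mean scaling, 11 and 0 under quantile normalization, 13 and 1 under median centring, 3 and 5 with epithelial centring, 4 higher in limma without trend or robust weights, and 2 to 13 higher and 0 to 2 lower over the omissions. The cause of these shifts was not tested. Enzymes that did not pass changed sign with epithelial centring (Fut2 -0.15, Gcnt3 -0.24, C1galt1c1 -0.034, Galnt4 -0.024, Chst4 -0.13), trimmed mean scaling (C1galt1 0.16, Galnt12 0.22), median centring (C1galt1 0.19, Galnt12 0.25) and quantile normalization (Galnt12 0.078), and over the omissions Gcnt3 ran from -0.19 to 0.26 (-0.19 and -0.031 without DSS + GAA replicates 1 and 2, -0.13 and -0.011 without DSS replicates 1 and 2) and Galnt12 from -0.11 to 0.0097 (the last without DSS replicate 5). The log2 ratio differences over the omissions ran from -2.13 to -1.65 for Fut2 over St3gal4, -1.92 to -1.66 for B4galnt2 over St3gal4, -0.44 to -0.25 for C1galt1 over C1galt1c1, -0.47 to -0.15 for Galnt12 over Galnt4, 0.03 to 0.43 for Gcnt3 over B3gnt6 (0.27 with all libraries and 0.57 at a pseudocount of 0.1) and -0.046 to 0.40 for Gcnt3 over C1galt1 (-0.046 without DSS + GAA replicate 1 and -0.0053 without DSS replicate 1).

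Same-numbered libraries of the 2 groups did not deviate together in every pair (r from -0.11 to 0.18), and not every library correlated best with its own number, so the numbers were not taken to pair animals. With the replicate block 679 genes were higher and 3340 lower, and 2 of the 10 enzymes were higher, St3gal4 and B3gnt7 (limma adjusted p = 0.00143 and 0.0122); Muc20 did not pass with it (0.0720). TPM keeps no depth, so the counting error behind low genes is unknown.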
